A study of Mus musculus with 18 samples.

Results

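Bone marrow-derived macrophages (BMDMs) of miR-146a knockout (KO) mice were compared with BMDMs of wild-type (WT) mice after exposure to lipopolysaccharide (LPS), a component of the bacterial outer membrane that Toll-like receptor 4 (TLR4) recognises. The comparison took the 3 KO and 3 WT libraries whose labels give LPS as the treatment, 6 of the 18 libraries in the series, and covered the 11357 of 21734 protein-coding genes that had enough reads to be tested. By the labels the marrow came from mice aged 6 to 7 months, 3 of each genotype and all of a mix of the 129 and B6 strains, while the study's proteomics methods give a younger age for the mice behind its lysates. It was grown into macrophages for 8 to 9 days in 10 ng/ml M-CSF, the growth factor that drives this lineage, and separate cultures then received medium with 1 ng/ml LPS or medium alone for 16 h. The remaining libraries are resting KO and WT BMDMs and both states of another genotype, 3′F, whose miR-146a keeps its seed but has an altered 3′ part. By the study's methods WT animals came from both mutant lines, and the KO allele was carried by the whole animal rather than made in culture. The labels do not say which strain's alleles each mouse carries away from the miR-146a gene, so differences that come with a 129 or B6 allele and differences that come with the loss of miR-146a cannot be told apart.

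MicroRNAs guide Argonaute proteins to messenger RNAs that pair with their seed, the bases near the 5′ end, and lower the stability and translation of those messages. miR-146a is switched on by NF-kB when TLR4 is engaged, and it is known as a brake on the same pathway because the signalling proteins IRAK1 and TRAF6 are among its targets. In macrophages TLR4 signals through one branch that activates NF-kB and inflammatory cytokine genes and through another that induces type I interferon, which in turn induces antiviral genes.

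The mature sequences below show what the KO cells lack and what they keep. Capitals mark the seed, bases 2 to 8, and sequences and positions are those of RefSeq on GRCm38.p6.
mmu-miR-146a-5p: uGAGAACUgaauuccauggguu
mmu-miR-146a-3p: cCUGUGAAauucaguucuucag
mmu-miR-146b-5p: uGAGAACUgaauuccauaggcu
The miR-146a-5p strand lies at chr11:43374435-43374456 on the minus strand. miR-146b-5p comes from another gene, at chr19:46342790-46342811 on the plus strand, shares the seed GAGAACU and matches miR-146a-5p at 20 of 22 positions. Neither microRNA was measured by the table of protein-coding genes, so the loss of miR-146a in the KO libraries was not analysed here.

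The target sites of the best known targets are shown because the comparison asks what happens to such messages without the microRNA. Each line is a stretch of 30 bases of the longest annotated 3′ UTR, in the mRNA sense and written with T, and capitals mark the 8-base match to the seed. A single site per gene is shown, and the UTRs of Irak1, Traf6 and Irak2 hold further matches to the seed.
Irak1: tcagaggtcaaAGTTCTCAtgcttggaagt
Traf6: ctctggtgttgAGTTCTCAtttagttgact
Irak2: gtgtctccgcaAGTTCTCAagttcaggact
Notch1: gaaaataaactAGTTCTCAgagccttgatt
They lie at chrX:74015382-74015411 on the minus strand, chr2:101697948-101697977 on the plus strand, chr6:113694255-113694284 on the plus strand and chr2:26459252-26459281 on the minus strand, in Gencode M21 coordinates of GRCm38, which is the mm10 build of the authors' alignment.

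The 6 libraries held 14398457 to 17008030 counts each, with TMM scaling factors from 0.812 to 1.02. Pairs of replicates differed beyond counting error (chi-square over its degrees of freedom from 12.3 to 48.8), so none was a copy of another. WT replicate 2 stood apart from the other WT libraries in several gene groups below, and its values are given there. All 9 gene rows of the macrophage marker list were detected, and their summed level was 44300 to 58500 CPM (counts scaled to a library total of 1000000) in WT and 69700 to 86800 in KO. Lyz2, which encodes lysozyme, made up most of that sum.

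A gene was called when its Benjamini-Hochberg adjusted p in edgeR's quasi-likelihood test was under 0.05. After LPS 544 genes were called, 4.79% of those tested. KO was higher for 215 of them (1.89%) and lower for 329 (2.9%), and 2041 genes had an unadjusted p under 0.05. Without KO replicates 1, 2 or 3 the count was 247, 180 or 344, and without WT replicate 2 it was 186. A fit of the 9 LPS libraries alone called 1373 genes, a fit of the 6 compared libraries 1031 and DESeq2 912. Of the 544 genes, 142 were called in each of the 6 fits that left out 1 LPS library, 51 higher and 91 lower.

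The median log2 difference of KO minus WT was 0.77 over the genes called higher and -1.11 over those called lower, against 0.01 over all genes tested. The difference was over 1 on the log2 scale for 70 genes called higher and 185 called lower, and over 2 for 26 and 38. Without regard to the test, all 3 KO libraries were above every WT library for 16.9% of genes and below every WT library for 16.1%.

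**Figure D1:**
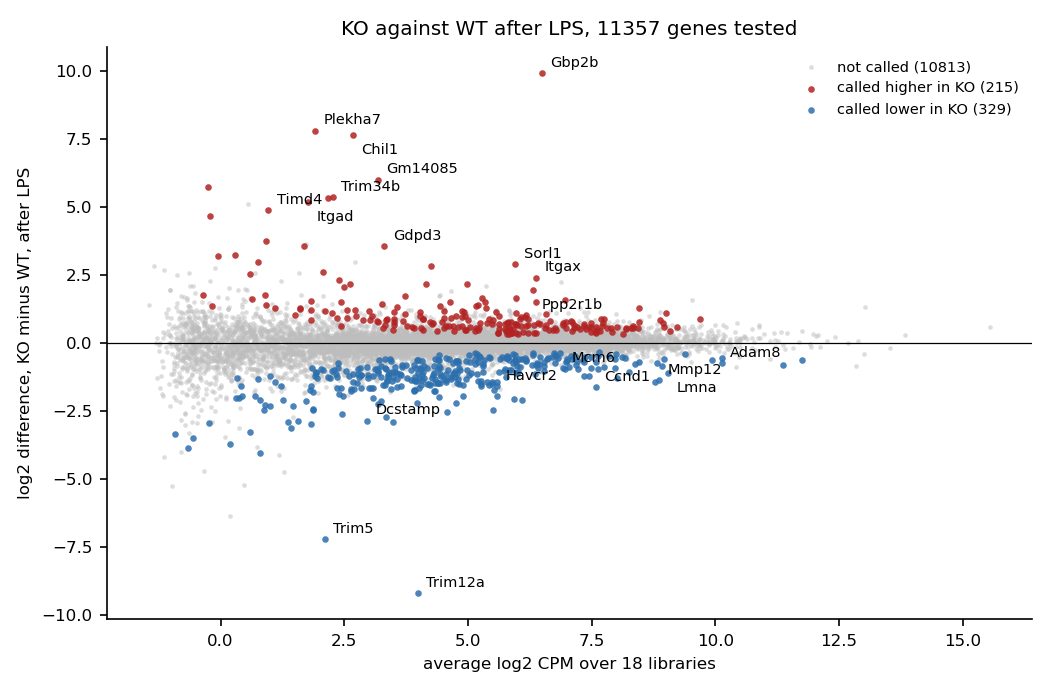
Log2 difference between KO and WT after LPS against the average log2 CPM over 18 libraries, 1 point for each of the 11357 genes tested, with the 215 genes called higher in KO in red, the 329 called lower in blue and the others in grey. Most called genes lie within 2 log2 units of 0, and a few stand far apart, such as Plekha7 at 7.81 and Trim12a at -9.21.

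Among reported miR-146a targets, 14 of 15 were tested, and 2 were called higher in KO (Irak2 and Notch1) and 1 lower (Cxcr4), against a background of 1.89% and 2.9%. Their median log2 difference was 0.16, and 11 of the 14 differences were above 0. Irak1, the kinase that miR-146a is best known to restrain, stood at 62.8, 51.5 and 46.8 CPM in WT replicates 1 to 3 and at 56.4, 65.9 and 54.9 in KO. Traf6, the ubiquitin ligase downstream of it, stood at 51.1, 44.9 and 40.2 CPM in WT and 54.0, 59.6 and 54.8 in KO. The 3 KO libraries lay above all WT libraries for Traf6 and overlapped them for Irak1. The log2 difference was 0.14 ± 0.18 (SE) for Irak1 and 0.31 ± 0.16 for Traf6, with adjusted p values of 0.766 and 0.332 in edgeR's test, so neither was called.

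Irak2, a kinase of the same receptor complex, had 94.8, 75.5 and 104 CPM in WT and 128, 186 and 130 in KO. Every KO library was above every WT library, and the log2 difference of 0.70 ± 0.19 (SE) passed narrowly, with an adjusted p of 0.0487. Notch1, a receptor and transcriptional regulator, was higher by 0.70 ± 0.16 (adjusted p 0.0199), at 46.3 ± 6.01 CPM in WT and 75.2 ± 4.95 in KO (SD, n = 3 each). Cxcr4, a chemokine receptor that retains myeloid cells in marrow, was lower by 0.97 ± 0.26 (log2 difference -0.97, adjusted p 0.0455). The calls of Irak2, Notch1 and Cxcr4 were each lost in at least 4 of the 6 fits that left out 1 library, with adjusted p up to 0.292, 0.118 and 0.238.

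Matches to the seed did not set the called genes apart in these counts. A match of 7 or 8 bases was found in the longest 3′ UTR of 23.5% of genes called higher, 23.1% of those called lower and 20.6% of all genes with such a UTR. The median UTR length was 1466 bases, 1174 bases and 1170 bases in the same order. Of 2324 genes with a match, 2.15% were called higher and 3.27% lower, with a median log2 difference of 0.02. Genes without one had values of 1.83%, 2.83% and 0.01.

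Of 24 TLR4 signalling genes 2 were called higher in KO (8.33%, against 1.89% of all genes), Irak2 and Irak3, and none lower. The list had a median log2 difference of 0.19, and 9 of its genes had all KO libraries above all WT libraries, against 16.9% of all genes. Irak3, which encodes the inhibitory kinase IRAK-M, was at 207, 195 and 186 CPM in WT and 318, 325 and 292 in KO. The genotypes did not overlap, and the log2 difference was 0.67 ± 0.19 (SE, adjusted p 0.0495). Its call was lost in each of the 6 fits that left out 1 library, as was that of Irak2.

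NF-kB subunits and feedback inhibitors showed 2 genes called higher (9.52%, against 1.89% of all genes) and none lower among 21 tested, with a median of 0.23. Tnip1, whose product ABIN1 limits NF-kB signalling, stood at 143, 156 and 133 CPM in WT and 240, 272 and 221 in KO. Nfkb1, which encodes the p105 precursor of the p50 subunit, stood at 196, 178 and 201 CPM in WT and 258, 343 and 265 in KO. Both were higher in every KO library than in any WT library. The log2 differences were 0.76 ± 0.11 (SE, adjusted p 0.00105) for Tnip1 and 0.59 ± 0.11 (adjusted p 0.00612) for Nfkb1, and both calls held in each of the 6 fits that left out 1 library. Nfkbia, which encodes the inhibitor IkBa and was named after its values were seen, had a log2 difference of 0.62 ± 0.19 and was not called (adjusted p 0.0693).

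The cytokine list had 1 of 18 genes called, Il1a, which was higher in KO (5.56%, against 1.89% of all genes), and a median log2 difference of 0.49. Il1a, an alarmin cytokine, was at 12, 9.28 and 20.1 CPM in WT and 49.6, 49.7 and 35.9 in KO. Il1b, the inflammasome-processed cytokine of the same family, was at 112, 53.4 and 122 CPM in WT and 458, 562 and 332 in KO. No KO value of either gene overlapped a WT value. The difference was 1.71 ± 0.34 (SE) on the log2 scale for Il1a, with an adjusted p of 0.00965 that reached 0.0663 without WT replicate 2. It was 2.23 ± 0.66 for Il1b, which was not called (adjusted p 0.0639). Fits of the 9 LPS libraries and of the 6 compared libraries called Il1b. DESeq2 and the fits that left out 1 LPS library did not.

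Il6, an acute phase cytokine, was sparse after 16 h, with 0.419, 0.273 and 0.733 CPM in WT and 3.24, 0.941 and 1.93 in KO. Its difference of 2.09 ± 0.65 (SE) on the log2 scale was not called (adjusted p 0.0733). Tnf stood at 159, 143 and 148 CPM in WT and 185, 270 and 169 in KO, a difference of 0.47 ± 0.20 (adjusted p 0.224). In both genes the lowest KO library still lay above the highest WT library. Neither of the chemokine lists held a called gene, with 11 CC and 10 CXC chemokines tested and medians of -0.15 and 0.31. Ccl9 had the smallest p of the CC list at -0.89 ± 0.26 (adjusted p 0.0588), and Cxcl9 of the CXC list at 0.95 ± 0.53 (adjusted p 0.383).

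None of 41 interferon-stimulated antiviral genes was called after LPS in the main fit, although 40 had a positive difference and the median was 0.58. The summed level of the list was 15680, 8029 and 29870 CPM in WT replicates 1 to 3 and 22250, 28960 and 23190 in KO. WT replicate 2 was the lowest and WT replicate 3 the highest of all 6, so the WT libraries spanned the KO range. Without WT replicate 2 the median was 0.26, and without WT replicate 3 it was 0.98. Xaf1, an interferon-induced promoter of cell death, had the smallest p at 1.21 ± 0.48 (SE, log2, adjusted p 0.175). The fit of the LPS libraries alone, the fit without resting KO replicate 3 and limma with quality weights called Xaf1 higher. DESeq2, the fit of the compared libraries and the fits that left out 1 LPS library did not. Isg15 and Ifit1, named after their values were seen, were at 0.59 ± 0.84 and 0.67 ± 0.86.

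At rest the same antiviral list behaved otherwise, with 37 of 41 genes called higher in KO and a median log2 difference of 3.38. Over all genes 1067 were called at rest (9.4%), 582 higher (5.12%) and 485 lower (4.27%). Resting KO replicate 3 stood apart, with a summed level of 23940 CPM against 2806 and 2224 in KO replicates 1 and 2 and 979, 1016 and 1443 in WT. Without it the median was 1.40 and 19 genes were called higher, and without resting WT replicates 1 or 2 the count was 18 or 14. The change from rest to LPS in the size of the KO effect was tested as an interaction, and none of the 41 genes passed, with a median interaction of -3.01 on the log2 scale and of -0.89 without that library. The interaction called 1 gene in all (0.00881%), Clmp, an adhesion molecule whose values are given further on, and 560 had an unadjusted p under 0.05. DESeq2 called 26 and limma with quality weights 57.

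Of 15 interferon-induced GTPases 1 was called higher (6.67%, against 1.89% of all genes), Gbp2b, and it rested on part of the KO libraries. Gbp2b was at 0.758 CPM in KO replicate 1, 659 in replicate 2 and 540 in replicate 3, against 0.419, 0.273 and 0.513 in WT. The log2 difference was 9.93 ± 2.26 (SE, adjusted p 0.0199), with an adjusted p as high as 0.11 if 1 library was omitted. The authors counted only reads above a minimum mapping quality. Reads that fit near-identical guanylate-binding protein genes equally can thus be missing, so the level of a single member is uncertain. Of 15 interferons, interferon receptors and kinases of their pathway none was called, and Socs3, an inhibitor of cytokine signalling, came nearest at 1.10 ± 0.31 (adjusted p 0.0516).

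**Figure D2:**
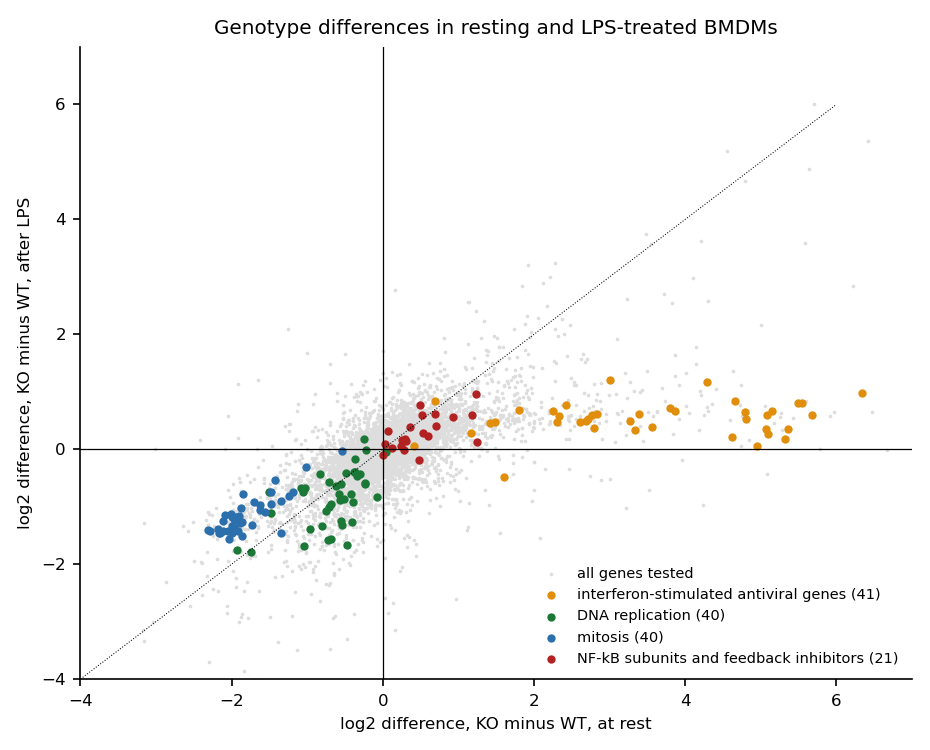
Log2 difference between KO and WT after LPS against that at rest, 1 point per gene, with 4 gene lists in colour, all other tested genes in grey and a dotted line where both are equal. Axes run from -4 to 7 and leave out 20 genes. The antiviral genes lie far to the right and near 0.58 after LPS, the mitosis genes lie in the lower left, and most DNA replication genes lie below 0 in both states.

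Antigen presentation genes were higher for class II in part. Of 10 class II genes 2 were called higher (against 1.89% of all genes), H2-Ab1, a chain of the I-A molecule, and Cd74, the invariant chain. H2-Ab1 had 28.3, 25.9 and 33.6 CPM in WT and 78.9, 74.0 and 47.4 in KO, and Cd74 had 33.8, 23.5 and 44.8 in WT and 98.0, 97.1 and 55.8 in KO. KO replicate 3 was the lowest KO library for both and still lay above WT. The log2 differences were 1.19 ± 0.30 (SE, adjusted p 0.035) and 1.30 ± 0.33 (adjusted p 0.0328), with adjusted p up to 0.161 and 0.175 without WT replicate 2. None of 23 class I genes was called, with a median of 0.52, and H2-M3 had the smallest p (0.77 ± 0.24, adjusted p 0.0798).

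Genes of cell division formed the clearest group below WT. Of 40 DNA replication genes 19 were called lower in KO and none higher, and of 40 mitosis genes 15 were called lower and none higher, against a background of 2.9% lower. The median log2 differences were -0.78 and -1.23. All KO libraries lay below all WT libraries for 30 genes of each list, against 16.1% of all genes tested. In bulk RNA, fewer dividing cells and less of this RNA in each cell cannot be told apart.

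Mcm6, a subunit of the helicase that opens DNA for replication, stood at 86.2, 103 and 103 CPM in WT and 54.3, 55.6 and 43.9 in KO. Mcm2, another subunit, stood at 22.5, 25.2 and 19.9 CPM in WT and 9.16, 7.10 and 11.8 in KO, and Mcm7 at 21.0, 24.8 and 19.9 in WT and 8.82, 6.73 and 10.8 in KO. Every KO library was below every WT library for these genes, with KO to WT ratios of 0.528 for Mcm6, 0.416 for Mcm2 and 0.401 for Mcm7. The log2 differences were -0.92 ± 0.12 (SE) for Mcm6, -1.27 ± 0.18 for Mcm2 and -1.32 ± 0.18 for Mcm7, with adjusted p of 0.000301, 0.000901 and 0.000598. These calls held without any 1 library. The other called members include the origin licensing factors Cdc6 and Cdt1, the helicase component Cdc45, the polymerase subunits Pold1 and Pole and the histone chaperones Chaf1a and Chaf1b.

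Cenpa, the histone variant of centromeres, stood at 16.5, 28.4 and 21.7 CPM in WT and 9.23, 7.46 and 7.49 in KO. Its log2 difference was -1.46 ± 0.27 (SE, adjusted p 0.00612), and that call held without any 1 library. Ccnb2, a cyclin of mitotic entry, was at -1.33 ± 0.29 (adjusted p 0.0158) and Ccna2, a cyclin of S and G2 phase, at -1.45 ± 0.33 (adjusted p 0.0185). WT replicate 2 was the highest library for all of them. The mitosis list summed to 803, 1608 and 1193 CPM in WT and 658, 447 and 686 in KO, so every KO library was below every WT library, and WT replicate 2 was farthest from KO. Without WT replicate 2 the median of the list was -0.94 and 1 gene was called, as it was without KO replicate 2. The DNA replication list summed to 1021, 1205 and 1122 CPM in WT and 698, 699 and 684 in KO, and 11 to 18 of its genes were called when 1 LPS library was left out.

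Of 57 clustered histone genes, whose messages accumulate in S phase, 3 were called lower (5.26%, against 2.9% of all genes), with a median of -0.68. Hist1h2ah was at -2.42 ± 0.47 (SE, log2, adjusted p 0.00782), Hist1h2ab at -1.37 ± 0.31 (adjusted p 0.018) and Hist2h2be at -0.81 ± 0.19 (adjusted p 0.0204). Reads that fit several of these short, near-identical genes equally can be missing from the counts, so single members are uncertain. Without KO replicate 2 none was called.

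Ccnd1, the cyclin that couples growth factor signals to entry into the cell cycle, had one of the smallest p values of all. It stood at 164, 170 and 196 CPM in WT and 60.1, 56.4 and 55.3 in KO (ENSMUSG00000070348, chr7:144929931-144939925). The KO libraries lay close together at a level well under WT, and the log2 difference was -1.62 ± 0.16 (SE, adjusted p 3.01e-05). At rest it was -0.27 and not called (adjusted p 0.326). E2f2, a transcription factor of replication genes that was named after its values were seen, was at -1.51 ± 0.23 (adjusted p 0.00167).

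Short sequences known from promoters of cell cycle genes were searched in these genes, and windows that hold them are shown as examples. In windows from 250 bases before to 50 bases after the start, the E2F letters TTTCCCGC or TTTGGCGC occurred on either strand in 29.7% of 37 windows of DNA replication genes, 5.34% of windows of genes called lower, 0.42% of those called higher and 2.97% of those of all genes tested. The cell cycle homology region letters TTTGAA occurred in 80.0% of 35 windows of mitosis genes, 18.1% for genes called lower, 16.0% for genes called higher and 12.2% for all tested. CCAAT occurred in 77.1%, 45.4%, 34.9% and 38.0% in the same order. In Mcm6 (chr1:128359656-128359955, minus strand) capitals mark the E2F letters, and in Cenpa (chr5:30666636-30666935, plus strand) and Ccnb2 (chr9:70421505-70421804, minus strand) they mark TTTGAA, from RefSeq on GRCm38.p6.
Mcm6: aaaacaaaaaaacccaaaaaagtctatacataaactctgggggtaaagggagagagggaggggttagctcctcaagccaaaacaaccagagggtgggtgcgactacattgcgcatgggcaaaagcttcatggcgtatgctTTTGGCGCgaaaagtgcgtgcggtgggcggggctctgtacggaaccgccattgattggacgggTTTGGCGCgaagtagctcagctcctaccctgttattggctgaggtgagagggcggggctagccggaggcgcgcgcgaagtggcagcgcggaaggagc
Cenpa: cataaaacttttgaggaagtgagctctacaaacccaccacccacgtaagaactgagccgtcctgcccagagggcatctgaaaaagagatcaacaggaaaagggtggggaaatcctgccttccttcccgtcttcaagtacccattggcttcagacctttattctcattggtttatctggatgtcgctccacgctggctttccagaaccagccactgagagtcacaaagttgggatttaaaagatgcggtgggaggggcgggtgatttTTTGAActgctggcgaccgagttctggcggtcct
Ccnb2: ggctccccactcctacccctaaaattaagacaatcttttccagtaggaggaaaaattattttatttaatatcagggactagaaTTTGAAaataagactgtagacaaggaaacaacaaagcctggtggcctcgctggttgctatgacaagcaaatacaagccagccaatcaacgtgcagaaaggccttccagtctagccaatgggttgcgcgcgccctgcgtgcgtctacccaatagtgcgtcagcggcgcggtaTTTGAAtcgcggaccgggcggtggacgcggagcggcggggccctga
The Mcm6 window holds 2 matches, the Cenpa window 1 and the Ccnb2 window 2. The Mcm2 window and 1 of the 2 windows of Mcm7 held no E2F match. All promoters in the table held the E2F letters in 1.56%, TTTGAA in 17.9% and CCAAT in 37.4% of windows of the same length.

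The letters of the interferon and NF-kB elements followed the lists more than the calls. GAAANNGAAA occurred in 50% of 36 windows of antiviral genes, 3.78% of those of genes called higher, 2.97% of those called lower and 3.36% of those tested, with 3.44% over all promoters. GGGANNTTCC or GGGNNTTTCC, which can overlap each other, occurred in 29.2% of 24 windows of NF-kB subunits and inhibitors, 25% of 16 windows of cytokine genes, 4.62% for genes called higher, 2.67% for genes called lower and 2.84% for all tested, with 2.68% over all promoters. A match is a description of the letters and not a bound site. The windows of Tnip1, Il1a, Irak2 and Irak3 held no match to these NF-kB letters, which do not cover every form of the element. The Tnip1 window holds GGGAATTCCC, which the letters searched do not match.

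**Figure D3:**
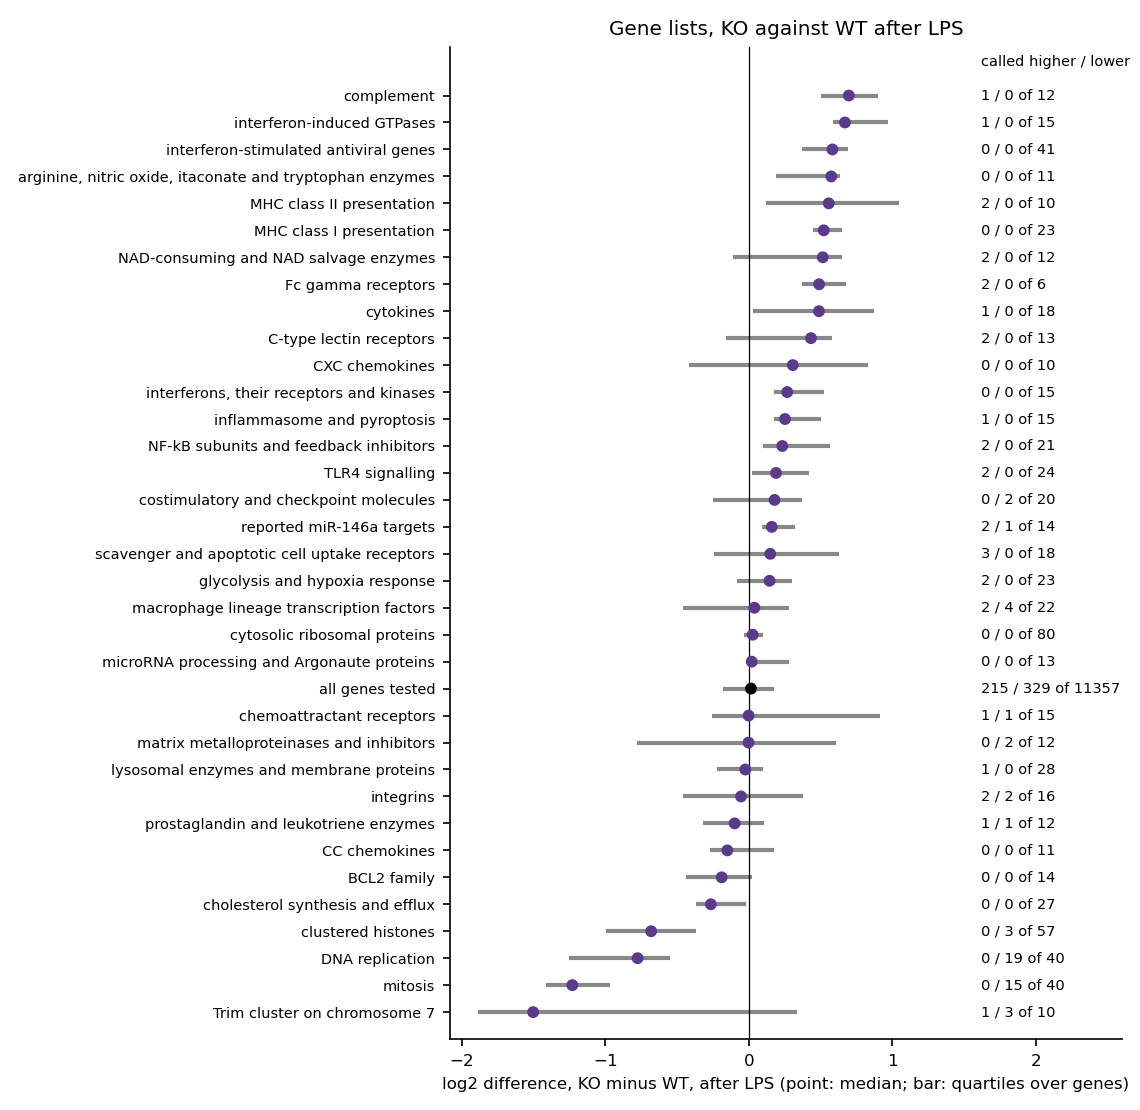
Median log2 difference between KO and WT after LPS for 34 gene lists and all genes tested (black), with bars between the quartiles over genes and the numbers called higher and lower at the right. Mitosis at -1.23 and DNA replication at -0.78 lie well below the median of 0.01 of all genes, and the antiviral list at 0.58 lies above it with no gene called.

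Integrins split by member. Of 16 rows tested 2 were called higher and 2 lower (12.5% each, against 1.89% and 2.9% of all genes), and the median was -0.05. Itgax, which encodes CD11c, stood at 40.7, 36.4 and 38.6 CPM in WT and 164, 226 and 223 in KO. Itgad, which encodes CD11d and lies beside it on chromosome 7, stood at 0.279, 0.341 and 0.293 CPM in WT and 10.1, 12.4 and 11.9 in KO. Both genes were far above the WT range in every KO library. The log2 differences were 2.40 ± 0.30 (SE, adjusted p 0.000301) for Itgax (ENSMUSG00000030789, chr7:128129547-128150657) and 5.19 ± 0.48 (adjusted p 1.9e-05) for Itgad (ENSMUSG00000070369, chr7:128154376-128223816), and both calls held without any 1 library.

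Itgam, which encodes CD11b and is the next gene of that cluster, went the other way, at 351, 270 and 368 CPM in WT and 223, 219 and 214 in KO. Its log2 difference was -0.59 ± 0.15 (SE, adjusted p 0.0315, up to 0.135 with 1 library left out). A second row with the symbol Itgam, under another identifier, held few reads and was not used for this value. Itga6, a laminin receptor chain, was lower by 0.94 on the log2 scale (SE 0.17, adjusted p 0.00581), and Itga4, a chain of the VCAM-1 receptor, was higher by 0.58 ± 0.15 (adjusted p 0.033).

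Scavenger and apoptotic cell uptake receptors held 3 genes called higher (16.7%, against 1.89% of all genes) and none lower of 18 tested, with a median of 0.15. Timd4, a phosphatidylserine receptor of resident macrophages, stood at 0.419, 0.273 and 0.0733 CPM in WT and 9.92, 7.53 and 5.99 in KO. It was nearly absent from WT and present in all KO libraries, with a log2 difference of 4.87 ± 0.83 (SE, adjusted p 0.00382), and the call held without any 1 library. Cd163, the haemoglobin scavenger receptor, was higher by 0.97 ± 0.25 (adjusted p 0.0346) and Scarb2, a lysosomal membrane receptor, by 0.55 ± 0.15 (adjusted p 0.045), and each of these calls was lost in 5 of the 6 fits that left out 1 library (adjusted p up to 0.145 and 0.229).

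Of 13 C-type lectin receptors 2 were called higher (15.4%, against 1.89% of all genes). They were the inhibitory receptor Clec12a (0.58 ± 0.12, SE, log2, adjusted p 0.012) and Clec4a3 (0.70 ± 0.16, adjusted p 0.0207). Of 6 genes in the Fc gamma receptor list 2 were called higher (33.3%), the inhibitory receptor Fcgr2b, at 270, 225 and 320 CPM in WT and 462, 477 and 403 in KO, and the neonatal receptor Fcgrt, at 52.7, 35.6 and 50 CPM in WT and 91.6, 106 and 87.6 in KO. The genotypes did not overlap for either, and the log2 differences were 0.72 ± 0.19 and 1.04 ± 0.27, each with an adjusted p of 0.0372. Of 12 complement genes C4b alone was called (1.78 ± 0.49, adjusted p 0.0494), and all 12 differences were above 0, with a median of 0.70. The calls of these genes were each lost in at least 3 of the 6 fits that left out 1 library.

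Among 20 costimulatory and checkpoint molecules 2 were called lower (10%, against 2.9% of all genes) and none higher. The median log2 difference of the list was 0.18, and 14 of the 20 differences were above 0. Havcr2, which encodes the checkpoint receptor TIM-3, stood at 18.5, 26.5 and 19.2 CPM in WT and 7.23, 6.44 and 7.70 in KO. Its log2 difference of -1.59 ± 0.15 (SE, adjusted p 2.79e-05) was among the best supported of all and held without any 1 library, while at rest it was -0.40 (adjusted p 0.0892). Cd276, which encodes the ligand B7-H3, had 4.05, 3.62 and 3.59 CPM in WT and 0.344, 1.30 and 0.357 in KO, a log2 difference of -2.48 ± 0.54 (adjusted p 0.0147).

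**Figure D4:**
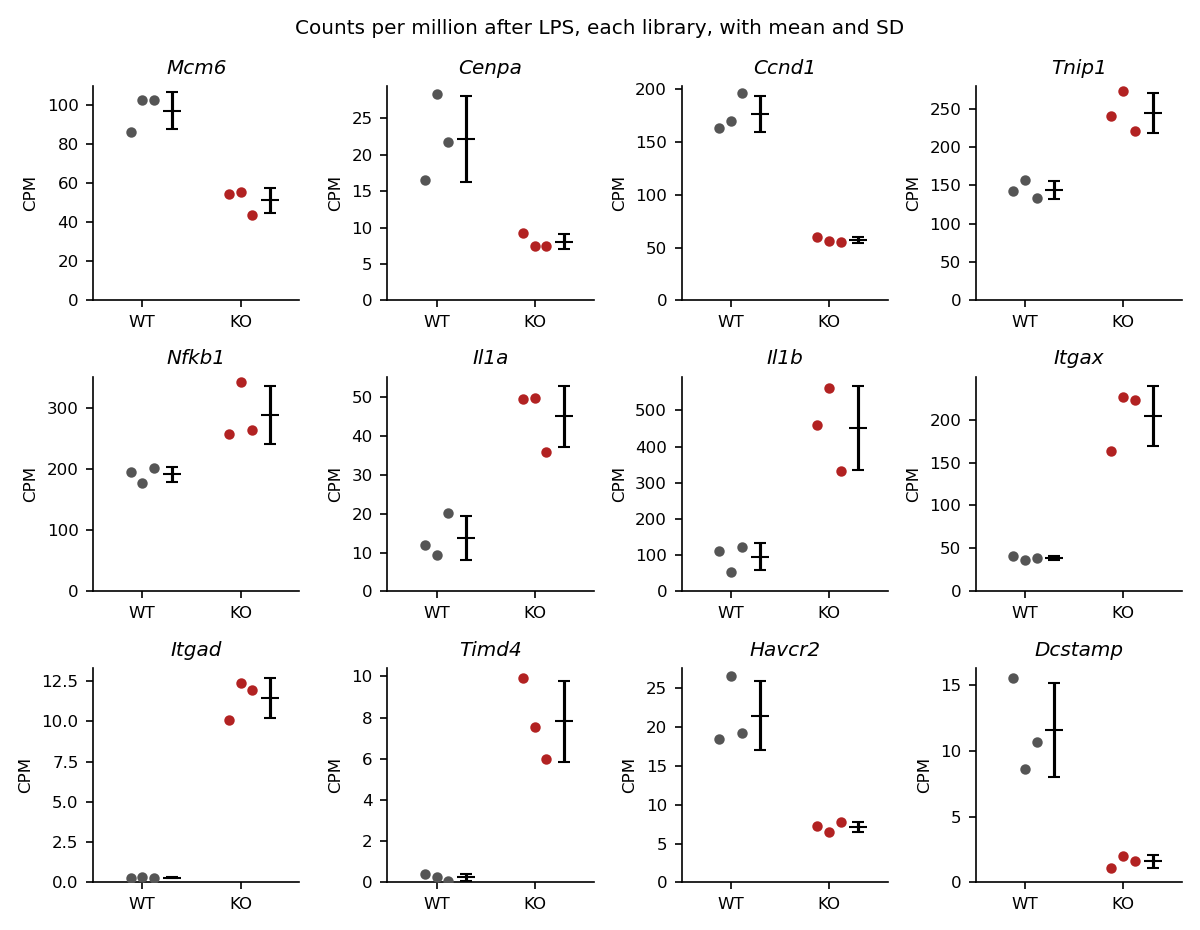
CPM after LPS in each of the 3 WT (grey) and 3 KO (red) libraries for 12 genes, with the mean and SD as bars and axes from 0. In each gene the KO libraries do not overlap the WT libraries, and Itgad and Timd4 are close to 0 in WT.

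Transcription factors of the macrophage lineage moved in both directions, with 2 of 22 called higher (9.09%, against 1.89% of all genes) and 4 lower (18.2%, against 2.9%). Id2, an inhibitor of basic helix-loop-helix factors, stood at 151, 134 and 172 CPM in WT and 85.3, 76.0 and 80.7 in KO (-0.92 ± 0.15, SE, log2, adjusted p 0.00246), and this call held without any 1 library. Bhlhe40 and Bhlhe41, related repressors, were at -1.38 ± 0.31 (adjusted p 0.0199) and -0.75 ± 0.17 (adjusted p 0.0203), and Pparg, the lipid-sensing nuclear receptor, was the other member called lower. Batf, an AP-1 factor, was at 1.29 ± 0.32 (adjusted p 0.0323) and Cebpd, an LPS-induced factor, at 0.64 ± 0.17 (adjusted p 0.0408). With 1 library left out the call of Cebpd was lost in 6 of 6 fits, that of Batf in 5 and those of Bhlhe40 and Bhlhe41 in 4 each.

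Among metabolic and effector lists the share called higher was 16.7% for NAD enzymes, 8.7% for glycolysis and hypoxia genes, 8.33% for eicosanoid genes and 6.67% for inflammasome genes, each 1 or 2 genes, against 1.89% of all genes tested. Pfkfb3, which makes the activator of glycolysis fructose 2,6-bisphosphate, stood at 81.2, 60.7 and 94.7 CPM in WT and 160, 166 and 130 in KO, and Hk2, the first enzyme of glycolysis, at 163, 149 and 143 in WT and 209, 242 and 237 in KO. These were the 2 of 23 glycolysis and hypoxia genes called, at 0.95 ± 0.17 (SE, log2, adjusted p 0.00535) and 0.59 ± 0.16 (adjusted p 0.0498). Of 12 NAD enzymes 2 were called higher, the NAD hydrolase Cd38 (1.39 ± 0.36, adjusted p 0.0349) and the salvage enzyme Naprt (1.02 ± 0.26, adjusted p 0.0345). Of 12 eicosanoid genes the phospholipase Pla2g4a was higher (0.35 ± 0.09, adjusted p 0.0375) and the leukotriene C4 synthase Ltc4s lower (-0.98 ± 0.23, adjusted p 0.0247). Nlrc4, an inflammasome sensor of bacterial proteins, was the 1 gene called of 15 in its list (0.62 ± 0.12, adjusted p 0.00839), and it held without any 1 library, as did Pfkfb3. The calls of Hk2 and Naprt were lost in all 6 of these fits, those of Cd38 and Pla2g4a in 5 and that of Ltc4s in 4.

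None of 11 arginine, nitric oxide, itaconate and tryptophan enzymes was called (median 0.57). Slc7a2, the arginine transporter, had the smallest p of that list, at 0.83 ± 0.33 (SE, log2, adjusted p 0.177). No gene was called among 27 cholesterol genes (median -0.27, with Sqle at -0.46 ± 0.14, adjusted p 0.0633) or 14 BCL2 family genes (median -0.19, with Bcl2l1 at -0.42 ± 0.13, adjusted p 0.0647). The 13 microRNA processing genes (median 0.02, with Dgcr8 at 0.34 ± 0.11, adjusted p 0.0939) and 80 cytosolic ribosomal protein genes (median 0.03, with Rps13 at -0.65 ± 0.19, adjusted p 0.0607) held none either. Of 28 lysosomal genes Lyz1 alone was called (3.57%, against 1.89% of all genes called higher), higher by 0.98 ± 0.25 (adjusted p 0.0325). It is a near copy of Lyz2, and reads that fit both equally can be missing.

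The matrix metalloproteinase list had a median log2 difference near 0 (-0.0032), with 6 of 12 differences above 0 and 2 genes called lower (16.7%, against 2.9% of all genes). Mmp12, the macrophage elastase, was at 301, 417 and 512 CPM in WT and 124, 154 and 201 in KO, and Adam8, a membrane protease, at 1122, 895 and 1061 in WT and 641, 577 and 618 in KO. These were the genes called, at -1.36 ± 0.27 (SE, log2, adjusted p 0.0091) and -0.75 ± 0.14 (adjusted p 0.00658). Dcstamp, which is needed for fusion of osteoclasts and giant cells, fell from 15.6, 8.60 and 10.6 CPM in WT to 1.10, 2.03 and 1.64 in KO (-2.86 ± 0.48, adjusted p 0.00344). Plau, the urokinase gene, which was named after its values were seen, was at -1.45 ± 0.22 (adjusted p 0.00167). The osteoclast marker list as a whole had 1 gene called lower, Dcstamp, and 1 higher, Acp5 (0.96 ± 0.24, adjusted p 0.0326), with summed levels of 236 to 290 CPM in WT and 191 to 285 in KO.

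Genes nearly silent in one genotype had the largest differences. Plekha7, an adherens junction protein, had 0 or 1 counts in each WT library and 13.3, 13.5 and 11.1 CPM in KO, at least 59.9-fold higher when WT is set to 3 counts per library. Trim12a and Trim5, antiviral TRIM proteins, had at most 1 count in each KO library and were at least 158-fold and 39.4-fold lower by the same bound. Trim34b was at 0.209, 0.409 and 0.586 CPM in WT and 14.3, 19.6 and 16.8 in KO, while its neighbour Trim34a fell from 60.3, 40.8 and 82.8 to 15.4, 17.1 and 15.1. The 10 tested genes of this cluster on chromosome 7 held 1 call higher and 3 lower. They are related genes, and reads that fit more than 1 of them equally can be missing from the counts, so these levels are uncertain. How alike their sequences are was not measured here.

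Gdpd3, a lysophospholipase D, stood at 1.74, 1.84 and 1.61 CPM in WT and 19.2, 22.1 and 20.8 in KO, a log2 difference of 3.57 ± 0.25 (SE, adjusted p 4.36e-07). Sorl1, a sorting receptor of endosomes, stood at 27.2, 25.3 and 33.8 CPM in WT and 220, 173 and 245 in KO (2.89 ± 0.21, adjusted p 4.36e-07; ENSMUSG00000049313, chr9:41964720-42124297). Ppp2r1b, a scaffold subunit of protein phosphatase 2A, stood at 47.3, 51.1 and 51.2 CPM in WT and 221, 142 and 211 in KO (1.94 ± 0.19, adjusted p 3.6e-05). None of these groups overlapped, and the 3 calls held without any 1 library. Gm14085 was at 6.01 ± 0.65 and Gprc5b, an orphan receptor, at 2.84 ± 0.53, both called.

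Chil1, a chitinase-like protein, rested on 1 library, with 103 CPM in KO replicate 3, 1.09 in replicate 2 and 0.207 in replicate 1, against 0.14 to 0.205 in WT. It was called (adjusted p 0.0269) and was not without KO replicate 3 (adjusted p 0.545).

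The largest differences below WT belonged mostly to genes with low WT levels. Mns1, a protein of sperm flagella, was at -3.14 ± 0.76 (SE, log2, adjusted p 0.0266), Cables1, a partner of cyclin-dependent kinases, at -3.00 ± 0.69 (adjusted p 0.0219) and Dppa3, a maternal factor, at -2.91 ± 0.56 (adjusted p 0.00687). Gvin1, an interferon-inducible giant GTPase, was at -2.90 ± 0.63 (adjusted p 0.0153) and Bace1, the beta-secretase, at -2.86 ± 0.52 (adjusted p 0.00535). Lrmda was at -2.72 ± 0.52 (adjusted p 0.007) and Gpr176, an orphan receptor, at -2.63 ± 0.41 (adjusted p 0.00184). Angptl2, a secreted angiopoietin-like protein with higher counts, stood at 34.8, 57.5 and 31.4 CPM in WT and 8.75, 11.9 and 9.20 in KO (-2.05 ± 0.23, adjusted p 0.000134). The calls of Dppa3, Bace1, Lrmda, Gpr176 and Angptl2 held without any 1 library, and those of Mns1, Cables1 and Gvin1 did not.

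On chromosome 7, 57 of 870 tested genes were called (6.55%), a share like those of chromosomes 12 (6.58%), 9 (6.23%), 19 (6.16%) and 3 (6.1%), and 12 of them had a difference above 2 on the log2 scale, the most of any chromosome, a comparison made after the values were seen. Among them were Plekha7, the TRIM genes, Gdpd3, Gprc5b, Itgad and Itgax. On the X chromosome 8 of 348 genes were called, all lower. Chromosome 11, where miR-146a lies, held 40 of 951 (4.21%). Within 2 Mb of the miR-146a gene 1 of 7 tested genes was called (14.3%), within 5 Mb 4 of 20 (20%), within 10 Mb 7 of 77 (9.09%) and within 20 Mb 15 of 219 (6.85%).

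The genes nearest to miR-146a, Pttg1 (-0.96 ± 0.44, SE, log2, adjusted p 0.253) and Slu7 (0.07 ± 0.09, adjusted p 0.762), were not called. The gene called within 2 Mb was Rnf145, a sterol-regulated ubiquitin ligase, at 0.45 ± 0.11 (adjusted p 0.0281). Havcr2 and Timd4 lie next on that side, at 3.09 and 3.45 Mb, and Hmmr, a hyaluronan receptor of dividing cells, on the other side at -2.66 Mb (-1.51 ± 0.38, adjusted p 0.0322). Farther along are Tnip1 and its neighbour Anxa6, an annexin of the endosomal membrane, which was at 1.27 ± 0.13 (adjusted p 4.29e-05). Genes linked to the KO allele can carry alleles of the strain in which it was made, and no value here separates such alleles from an effect of the microRNA.

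**Figure D5:**
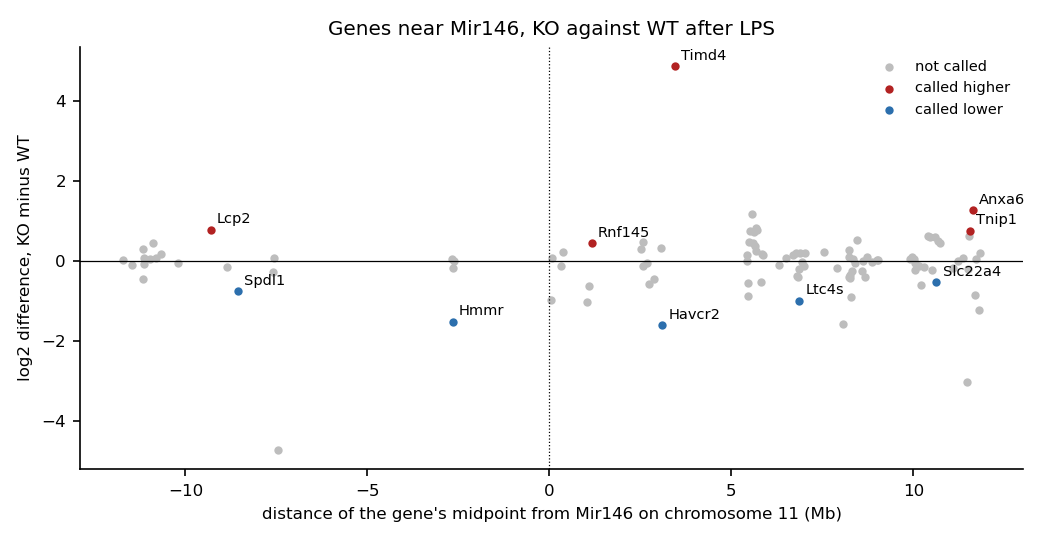
Log2 difference between KO and WT after LPS against the distance of a gene's midpoint from Mir146, for tested genes of chromosome 11 within 12 Mb, with genes called higher in red, called lower in blue and others in grey. The nearest genes lie close to 0 or are not called, and Timd4 at 4.87 and Havcr2 at -1.59 stand near 3 Mb.

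Of the 215 genes called higher after LPS, 118 were also called higher at rest, and of the 329 called lower, 156 were called lower at rest, with none called in the opposite direction. These comparisons use different libraries. Whether both cultures with 1 replicate number came from 1 mouse was not stated in the labels. Some same-numbered resting and LPS libraries of a genotype deviated together from their group means, with correlations up to 0.318. The comparisons at rest and after LPS may therefore not be independent. The DNA replication list had 15 genes called lower at rest and a median of -0.56, against 19 and -0.78 after LPS. The mitosis list had 38 called lower at rest and a median of -1.91. Among genes called after LPS and not at rest were Ccnd1, Havcr2, Mcm2, Mcm7, Id2, Il1a, Adam8 and Pfkfb3. The interaction was not called for any of them. Without resting KO replicate 1 or 3 it was called for Ccnd1, at -1.53 (adjusted p 0.00802) or -1.10 (adjusted p 0.0163) on the log2 scale.

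In 3′F BMDMs after LPS the mean levels were 89.9 CPM for Mcm6, 157 for Ccnd1, 19.6 for Havcr2, 46.0 for Itgax and 160 for Tnip1, against 97.2, 176, 21.4, 38.6 and 144 in WT and 51.3, 57.3, 7.13, 204 and 245 in KO. 3′F carried Plekha7 at 0.0244 CPM, Trim12a at 35.5, Timd4 at 0.36 and Itgad at 0.244, all near the WT level. Dcstamp lay between the groups, at 6.94 CPM in 3′F, 11.6 in WT and 1.59 in KO. Irak1 and Traf6, which were not called between KO and WT, stood at 59.4 and 59.0 CPM in 3′F, against 53.7 and 45.4 in WT and 59.1 and 56.1 in KO. The 3′F and KO groups are set against the same WT libraries.

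Markers of other cells were low. The neutrophil list summed to 32.9 to 39.6 CPM in WT and 38.6 to 68.0 in KO, and the T cell list to 5.26 to 8.36 in WT and 7.30 to 12.2 in KO, with Cd3e and Cd3g at 0 in all 6 libraries. The NK cell, B cell, dendritic cell, mast cell, erythroid, stromal and myeloid progenitor lists each summed to 3.23 CPM or less in every library. Of the 5 neutrophil and 2 T cell markers tested none was called. The part of other cells in the differences between genotypes was not tested beyond these levels.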

How the data were processed

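RNA was measured in 18 libraries of mouse BMDMs, of which the 6 LPS libraries of KO and WT form the comparison. By the study's methods and the submitters' processing notes, the authors depleted ribosomal RNA, made directional libraries, trimmed reads with cutadapt 1.8.3, aligned them to mm10 with HISAT2 2.1.0 and deposited raw counts per protein-coding gene from featureCounts 1.5.3. Groups came from the sample labels.

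Counts were fitted over all 18 libraries with 1 mean per group by edgeR 4.0.16 quasi-likelihood tests (TMM scaling, filterByExpr, Benjamini-Hochberg adjustment, R 4.3.3). Standard errors (SE) are the log2 difference over the square root of F, and CPM are TMM-scaled. Named genes were the 10 largest differences per direction (called, no overlap, average log2 CPM of at least 1), the 5 smallest p values per direction, up to 3 called members per list and direction, the gene of smallest p in lists without calls, and fixed targets and cytokines. The members and lists were chosen with earlier results of these data known. Alternatives used DESeq2 1.42.0, limma 3.58.1, other scaling, no filter, fewer libraries, a replicate block and left-out replicates. The fit was tested on simulated data. Depth was 14398457 to 17008030 counts in the 6 libraries, and p-values rest on the spread between replicates within all 6 groups of the series. Motifs were searched in RefSeq promoters of 8907 tested genes found by symbol. Some genes that the rule names are not reported here.

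Same-numbered KO and WT LPS libraries did not deviate together (correlations of -0.035, -0.245 and -0.032), so the numbers were not used to pair genotypes. Same-numbered resting and LPS libraries had correlations of 0.318, 0.028 and 0.044 in KO and 0.055, 0.28 and 0.291 in WT. Those of different number ran from -0.268 to 0.121. The main fit, with its interaction, treated resting and LPS libraries as independent.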

Additional observations from a re-analysis of the deposited data

Results flagged for a closer look

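Clmp, which encodes an adhesion molecule of the CTX family, was the 1 gene whose difference between KO and WT differed between rest and LPS in edgeR's test of the interaction, at -1.92 ± 0.28 (SE, log2, adjusted p 0.0369). After LPS it stood at 38.9 ± 1.72 CPM in WT and 52.3 ± 6.41 in KO (SD, n = 3 each), and at rest at 2.61 ± 0.62 in WT and 13.1 ± 4.04 in KO. KO was thus above WT in both states, with a log2 difference of 0.43 after LPS, which was not called (adjusted p 0.192), and of 2.35 at rest (adjusted p 1.43e-05). Clmp did not pass the interaction test when any of the 6 LPS libraries or of the 3 resting WT libraries was left out, or in a fit of the 12 KO and WT libraries.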

How the results depend on the processing

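The count of 544 genes after LPS was 540 with DESeq2 size factors, 552 without a filter, 912 by DESeq2, 1777 by limma with quality weights, 1031 with the 6 compared libraries, 1373 with the 9 LPS libraries and 944 without resting KO replicate 3. Leaving out 1 LPS library gave 180 (without KO replicate 2) to 416, and the cause was not tested. The 1067 calls at rest became 2259 with quality weights, 396 with the 6 compared libraries and 392 (without WT replicate 2) to 1047 with 1 library left out. The single interaction call became 2 without a filter, 26 by DESeq2, 57 with quality weights, 0 with the 12 KO and WT libraries and 0 to 4 with 1 library left out. As a replicate block, the replicate number gave 579 calls after LPS (496 shared), 963 at rest and 1 in the interaction, and 115 after LPS in a fit of the compared libraries, an alternative chosen after seeing the data. Of 72 named calls, 7 were lost under the block in the fit of 18 libraries, and 31 held in all 6 fits that left out 1 LPS library. No named gene changed direction past the threshold. Of 1302 alternative values of 87 named genes, 1008 kept their side of the threshold, 240 lost the call and 54 gained one. With the 9 LPS libraries, calls were gained for Il1b, Il6, Ccl9, Socs3, H2-M3, Xaf1, Bcl2l1, Sqle and Rps13. Irak1, Traf6, Tnf, Cxcl9, Slc7a2 and Dgcr8 were not called there either. At 3 libraries per genotype, genes of few counts rest on single libraries, as Chil1 does.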
